A study of Mus musculus with 24 samples.

Results

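The 10 α- and β-tubulin genes *Tuba1a*, *Tuba1b*, *Tuba1c*, *Tuba3a*, *Tuba3b*, *Tuba8*, *Tubb2b*, *Tubb3*, *Tubb4b* and *Tubb5* were followed in mouse testis. They were chosen by gene symbol, as 10 of the 24456 genes in the count tables: 6 α genes and 4 β genes. All 10 passed the filter on low counts and were tested.

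Total RNA was sequenced from testes of male pups, either wild-type (WT) or homozygous for an *Atad2* knockout (KO), killed on postnatal days 20, 22, 24 and 26. ATAD2 is a bromodomain ATPase of chromatin, and the question was what its absence does to gene expression while the first haploid germ cells form. Per genotype there were 4 libraries on day 20, 4 on day 22, 2 on day 24 and 2 on day 26, hence 24 in all. The KO allele came from a knockout-first allele (tm1a) of the International Knockout Mouse Consortium, which carries a *lacZ* trap and a floxed *neo* cassette. Mice with it were crossed to mice in which the ubiquitous CMV promoter drives Cre, so the KO mice carry *lacZ* fused behind exon 11 and lack *neo* and exon 12 in all tissues. WT pups carried neither change. The study's methods describe RNA extracted from harvested testes, and the labels give testis as the source, but their extraction text also names a purification of spermatogenic cell fractions, so what was extracted is not fully settled. The strain background is not given in the sources used here, and replicate samples were called biological replicates, without saying how many pups gave each, so the p-values measure the spread between these samples.

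Microtubules are hollow polymers of α/β-tubulin heterodimers, and mammals encode each subunit in several genes whose products differ mainly in their acidic C-terminal tails. In the testis, microtubules build the meiotic spindle, the manchette that shapes the spermatid head and the axoneme of the sperm tail, and they support the long processes of Sertoli cells. The tails are the sites where most α-tubulins lose and regain a terminal tyrosine and where chains of glutamate or glycine are added. Background knowledge places *Tuba3a* and *Tuba3b*, which encode near-identical proteins, chiefly in testis, *Tubb4b* in ciliated and flagellated cells, *Tubb5* and *Tuba1b* in dividing cells, and *Tubb3*, *Tubb2b* and *Tuba1a* in neurons.

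The ends of 8 of the coding sequences are shown because they encode these tails. Each is the last 60 coding bases, 5′ to 3′, read from the GENCODE M21 transcripts, with the codon before the stop in capitals. Every stretch lies in the last exon of its transcript, within coding sequence.
Tuba1c: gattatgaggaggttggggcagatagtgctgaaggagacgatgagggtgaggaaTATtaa
Tuba3a: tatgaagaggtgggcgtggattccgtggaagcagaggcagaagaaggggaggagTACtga
Tuba3b: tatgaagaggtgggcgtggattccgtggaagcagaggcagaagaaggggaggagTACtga
Tuba8: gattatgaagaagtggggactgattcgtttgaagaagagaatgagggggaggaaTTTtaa
Tubb2b: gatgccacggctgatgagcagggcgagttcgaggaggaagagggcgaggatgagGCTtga
Tubb3: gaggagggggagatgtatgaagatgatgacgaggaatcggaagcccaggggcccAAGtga
Tubb4b: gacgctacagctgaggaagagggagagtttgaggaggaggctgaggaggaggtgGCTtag
Tubb5: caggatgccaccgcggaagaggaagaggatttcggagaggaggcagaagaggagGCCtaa
Of the 4 α genes shown, 3 end in a tyrosine codon (TAC or TAT), and *Tuba8* ends in TTT, which encodes phenylalanine. The 4 β genes end in codons for alanine (GCT, GCC) or, in *Tubb3*, lysine (AAG). The printed ends of *Tuba3a* and *Tuba3b* were identical.

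On build mm10, the 3 *Tuba1* genes lie close together on chromosome 15, with *Tuba1b* at chr15:98931425-98934565 and *Tuba1a* at chr15:98949837-98953703 on the minus strand and *Tuba1c* at chr15:99029891-99038110 on the plus strand. The other α genes are on chromosome 6, with *Tuba8* at chr6:121210696-121226854 (plus), *Tuba3a* at chr6:125278274-125286042 (minus) and *Tuba3b* at chr6:145615757-145621479 (plus). The β genes are dispersed, with *Tubb4b* at chr2:25222160-25224702 (minus), *Tubb3* at chr8:123411424-123422015 (plus), *Tubb2b* at chr13:34126748-34130466 (minus) and *Tubb5* at chr17:35833921-35838306 (minus).

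How far these genes can be told apart by reads limits every level below, because read pairs with several alignments had been discarded. The coding sequences of *Tuba1a* and *Tuba1b* were 98.3% identical, those of *Tuba1b* and *Tuba1c* 97.9%, and those of *Tuba3a* and *Tuba3b* 97.0%, with 41 differing bases of 1353. Of all stretches of 75 bases, the read length, in the longest coding transcript, 24.0% occurred in no other annotated transcript for *Tuba1b*, 43.3% for *Tuba1c* and 43.7% for *Tuba1a*. The share was 62.2% for *Tubb4b*, most of whose remainder is shared with the annotated pseudogene *Tubb4b-ps1*, and 67.8% for *Tubb2b*, which shares 29.3% with *Tubb2a*. It was 80.1% for *Tuba3a* and 81.1% for *Tuba3b*, which share 285 stretches with each other. *Tuba8*, *Tubb3* and *Tubb5* were unique over their whole length (100%). Levels of the *Tuba1* genes and of *Tubb4b* are therefore under-counted to a degree that differs between genes, and those of *Tuba3a* and *Tuba3b* by the stretches they share. *Tuba1a* and *Tuba1b* also share exon sequence on the same strand with the annotated gene *Gm49450*, and *Tubb4b* overlaps *Fam166a* on the opposite strand, which the strand-specific counting separates.

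Counts assigned to genes summed to 10709667 to 19491935 per library. WT_d20_2 (the WT library of day 20 numbered 2) had the lowest total and the highest share of pairs with several alignments, 13.7%, and stood apart for several tubulin genes. *Atad2* was lower in every KO library than in any WT library of its day (30.8 to 53.0 CPM, counts scaled to a library size set by TMM, in the KO libraries and 76.1 to 171 CPM in the WT libraries). Its mean log2 fold change over the 4 days was -1.37 ± 0.11 (SE; p adjusted over all genes by Benjamini-Hochberg = 1.23e-07, edgeR). As a tissue check, the list of 12 Sertoli cell markers summed to 1565 to 3220 CPM and that of 10 pachytene markers to 3482 to 8285 CPM, and no marker of either list was at 0 in all libraries of a group. Neuronal markers summed to 10.4 to 24.8 CPM and epididymal markers to 0.857 to 717 CPM, with *Snap25*, *Nefl* and *Lcn5* each at 0 in all libraries of 1 group. The epididymal sums were uneven between genotypes. Their highest library was at 277, 531, 717 and 546 CPM in WT at days 20, 22, 24 and 26. In KO it was at 51.9, 129, 158 and 129 CPM, and the lowest library of each group was at 0.857 to 1.31 CPM. The part of neuronal or epididymal RNA in the tubulin levels was not tested.

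The 10 genes differed widely in level. Levels of different genes are compared here only per kb of exon, as CPM per kb. Averaged over the 24 libraries, *Tuba3a* stood at 452 CPM per kb, *Tuba3b* at 393 and *Tubb4b* at 278, above *Tuba1a* at 78.7 and *Tubb5* at 73.4. *Tuba1b* followed at 26.8, *Tubb3* at 25.9, *Tuba8* at 10.1, *Tuba1c* at 8.56 and *Tubb2b* at 0.348. Per kb of the length unique at 75 bases among transcripts, an alternative chosen after seeing the data, *Tuba1b* stood at 125, above *Tubb5* at 94.8, and *Tuba1c* at 23.7, above *Tuba8* at 10.5. *Tuba1a* then stood at 188, and *Tubb4b* was first at 611, before *Tuba3a* at 592 and *Tuba3b* at 505. By exon length, the first 3 places were held by *Tuba3a*, *Tuba3b* and *Tubb4b* in each of the 8 groups, and *Tuba8* moved most in the order.

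In WT at day 20, mean levels were 351 ± 134 CPM per kb for *Tuba3a*, 319 ± 86.7 for *Tuba3b*, 190.2 ± 66.9 for *Tubb4b*, 99.6 ± 5.30 for *Tuba1a* and 93.1 ± 12.7 for *Tubb5* (SD, n = 4). Within this order, *Tuba3a* and *Tuba3b*, *Tuba3b* and *Tubb4b*, *Tuba1a* and *Tubb5*, and *Tuba1b* and *Tubb3* differed by less than the sum of their SDs, and *Tuba8* was last at 0.0524 ± 0.0354. In WT at day 26 the order was *Tuba3a* (498 ± 29.9), *Tuba3b* (393 ± 16.1), *Tubb4b* (370.4 ± 30.8), *Tubb5* (54.4 ± 5.201), *Tuba1a* (50.3 ± 5.19) and *Tuba8* (38.7 ± 8.82; SD, n = 2). There, *Tuba3b* and *Tubb4b* lay within their summed SDs, and so did *Tubb5* and *Tuba1a*, *Tuba1a* and *Tuba8*, and *Tubb3* and *Tuba1b*. In KO at day 26 the order opened with *Tuba3a* (692 ± 0.7497), *Tuba3b* (589 ± 6.98), *Tubb4b* (437 ± 10.7), *Tuba1a* (56.0 ± 2.98) and *Tuba8* (52.4 ± 3.09), and only the last pair of these lay within the summed SDs.

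**Figure D1:**
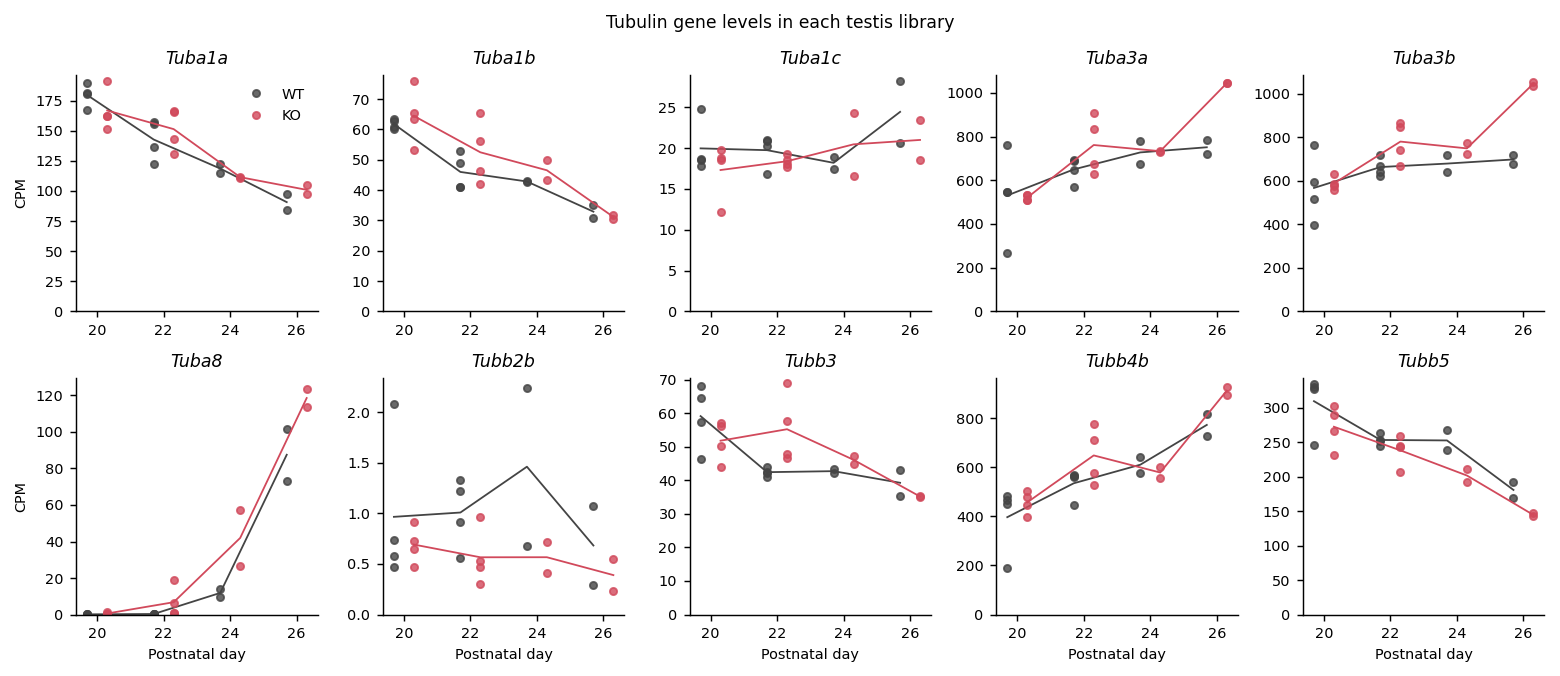
Level of each tubulin gene in CPM (y axis, linear from 0, scaled per gene) against postnatal day (x axis), with 1 point per library, WT in grey and KO in red, and lines through the group means. *Tuba8* climbs from under 2 CPM at day 20 to 73.4 to 124 CPM at day 26. *Tubb4b* is higher late in both genotypes, and *Tuba3a* and *Tuba3b* are higher late in KO, while their WT changes did not pass the test. *Tuba1a*, *Tuba1b*, *Tubb3* and *Tubb5* are lower late, and WT_d20_2 is the lowest point of *Tuba3a*, *Tuba3b* and *Tubb4b*.

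Which tubulin genes changed as the first wave of spermatogenesis advanced was asked by comparing day 26 with day 20 within each genotype. In WT, *Tuba8* and *Tubb4b* rose and *Tuba1a*, *Tuba1b*, *Tubb3* and *Tubb5* fell, so that 6 of the 10 genes passed an adjusted p of 0.05 in the quasi-likelihood test of edgeR. In KO, 8 passed: the same 6, in the same directions, and *Tuba3a* and *Tuba3b*, which rose. *Tuba1c* and *Tubb2b* passed in neither genotype. Over all 17170 genes tested, 24.4% were called higher and 18.1% lower at day 26 in WT, and 27.2% higher and 24.9% lower in KO. The median log2 fold change of the 10 genes was -0.15 in WT and -0.14 in KO, beside -0.04 and -0.07 over all genes. In such mixtures of cells, fewer cells of a type and less RNA per cell cannot be told apart in any of these comparisons.

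Among the α genes, *Tuba3a* was the most abundant per length. CPM of *Tuba3a* in the WT libraries was 759.7, 266, 547 and 548 on day 20, then 688, 570.1, 692 and 647 on day 22, 779 and 675 on day 24 and 719 and 783 on day 26. For *Tuba3a* in KO the libraries stood at 532, 509, 508 and 532 CPM on day 20, then 628, 836, 675 and 906 on day 22, 731 and 735 on day 24 and 1043 and 1045 on day 26. WT_d20_2 was far below the other WT libraries of its day, WT_d20_1 far above, and both KO libraries of day 26 lay above all others of the series. The log2 fold change from day 20 to day 26 was 1.005 ± 0.23 in KO (SE; adjusted p = 0.00119, edgeR) and 0.50 ± 0.23 in WT (adjusted p = 0.0893). Without WT_d20_2 the WT value was 0.24 (adjusted p = 0.205), and without WT_d20_1 it was 0.69 and passed (adjusted p = 0.0153).

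*Tuba3b* ran close to it. CPM of *Tuba3b* in the WT libraries was 763, 396, 515 and 593 on day 20, then 718, 642, 668 and 623 on day 22, 716 and 641 on day 24 and 677 and 718 on day 26. For *Tuba3b* in KO the libraries stood at 632, 555, 585 and 578 CPM on day 20, then 668, 846, 741 and 863 on day 22, 724 and 773 on day 24 and 1054 and 1037 on day 26. The WT libraries of day 26 lay within the range of those of day 20, and the KO libraries of day 26 lay clear above every other library. On the log2 scale the change with age was 0.83 ± 0.17 in KO (adjusted p = 0.000371, edgeR) and 0.30 ± 0.17 in WT (adjusted p = 0.161), which was 0.12 without WT_d20_2 (adjusted p = 0.483) and passed without WT_d20_1 (0.44, adjusted p = 0.0207). The ratio of *Tuba3a* to *Tuba3b* CPM was 0.914 ± 0.171 in WT at day 20 and 0.887 ± 0.0380 in KO (SD, n = 4), and 1.08 ± 0.0205 and 0.998 ± 0.0129 at day 26 (n = 2).

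*Tuba8* had the steepest course. WT libraries held 2, 0, 3 and 2 counts of it at day 20 (0.157, 0, 0.173 and 0.144 CPM) and 7, 3, 4 and 4 counts at day 22 (0.493, 0.251, 0.233 and 0.205 CPM). The level then was 9.49 and 14.2 CPM at day 24, and 102 and 73.4 CPM at day 26. A count of 0 in WT_d20_2 allows up to 0.316 CPM (3 counts), and every WT library of day 20 was at or under that floor of 3 counts. KO libraries held 4, 1, 5 and 24 counts at day 20 (0.290, 0.0654, 0.330 and 1.63 CPM) and 11, 314, 99 and 14 counts at day 22 (0.666, 18.9, 6.52 and 0.939 CPM). They were at 57.3 and 26.5 CPM at day 24 and at 114 and 124 CPM at day 26. From day 22 on, every KO library was above every WT library of its day, and at day 20 the genotypes overlapped. Over all genes, libraries of the genotypes did not overlap for 8.09% at day 22, 44.0% at day 24 and 59.0% at day 26.

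The summed counts of *Tuba8* were 2777 in WT at day 26 and 7 at day 20, a ratio of 679 after scaling (95% interval from the exact binomial distribution 329 to 1691, counting error only). In KO the summed counts were 3803 and 34, a ratio of 206 (147 to 299). Of these 34 counts 24 were in KO_d20_4, without which the ratio was 526 (286 to 1098), and the intervals of WT and KO then overlapped. The rise passed the test in WT (adjusted p = 1.74e-06, edgeR) and in KO (adjusted p = 4.42e-06). The fitted fold change against so few counts depends on the prior count and is not given.

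The *Tuba1* genes went the other way or did not pass. CPM of *Tuba1a* in the WT libraries was 189.9, 167, 180.5 and 181 on day 20, then 157, 156, 136 and 122 on day 22, 123 and 115 on day 24 and 97.3 and 84.1 on day 26. For *Tuba1a* in KO the libraries stood at 191, 162, 163 and 151 CPM on day 20, then 165, 131, 166 and 143 on day 22, 112 and 111 on day 24 and 97.1 and 105 on day 26. In both genotypes the libraries of day 26 lay below all those of days 20, 22 and 24. The log2 fold change was -0.99 ± 0.13 in WT (adjusted p = 4.53e-06, edgeR) and -0.72 ± 0.13 in KO (adjusted p = 0.000156).

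CPM of *Tuba1b* in the WT libraries was 60.8, 60.02, 62.9 and 63.3 on day 20, then 48.9, 52.8, 41.1 and 41.1 on day 22, 42.7 and 42.9 on day 24 and 35.1 and 30.6 on day 26. For *Tuba1b* in KO the libraries stood at 75.8, 63.5, 65.3 and 53.1 CPM on day 20, then 65.4, 41.8, 56.3 and 46.2 on day 22, 49.7 and 43.3 on day 24 and 31.7 and 30.5 on day 26. The libraries of day 26 were again the lowest of each genotype. On the log2 scale the change was -0.91 ± 0.17 in WT (adjusted p = 0.00015, edgeR) and -1.05 ± 0.17 in KO (adjusted p = 3.92e-05). *Tuba1c* ranged from 12.2 CPM in KO_d20_2 to 28.2 CPM in WT_d26_1, with log2 fold changes of 0.29 ± 0.19 in WT (adjusted p = 0.226, edgeR) and 0.28 ± 0.19 in KO (adjusted p = 0.233).

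Among the β genes, *Tubb4b*, whose product is the main β-tubulin of motile cilia, was the most abundant. CPM of *Tubb4b* in the WT libraries was 482, 188, 450.5 and 467 on day 20, then 564, 448, 569 and 561 on day 22, 643 and 579 on day 24 and 728 and 819 on day 26. For *Tubb4b* in KO the libraries stood at 448, 396, 479.8 and 506 CPM on day 20, then 529, 712, 577 and 778 on day 22, 556 and 602 on day 24 and 929 and 897 on day 26. Libraries of day 26 were above all those of the earlier days in both genotypes. The log2 fold change was 0.96 ± 0.24 in WT (adjusted p = 0.00264, edgeR) and 0.997 ± 0.24 in KO (adjusted p = 0.0016). Without WT_d20_2, the lowest library, the WT value was 0.69 (adjusted p = 0.00085), and the WT call was lost when only the groups compared were fitted (adjusted p = 0.0825).

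*Tubb5*, the β-tubulin of many dividing cells, fell in both genotypes. CPM of *Tubb5* in the WT libraries was 328, 247, 334 and 331 on day 20, then 264, 254, 251 and 245 on day 22, 267 and 238 on day 24 and 193 and 169 on day 26. For *Tubb5* in KO the libraries stood at 266, 232, 303 and 289 CPM on day 20, then 244, 206, 259 and 244 on day 22, 211 and 193 on day 24 and 147 and 142 on day 26. At days 24 and 26 every KO library was below every WT library, and at days 20 and 22 they overlapped. Over all genes, libraries of the genotypes did not overlap for 44.0% at day 24 and 59.0% at day 26. On the log2 scale the change with age was -0.78 ± 0.14 in WT (adjusted p = 0.000114, edgeR) and -0.92 ± 0.14 in KO (adjusted p = 2.46e-05).

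*Tubb3*, best known from neurons, was present at every stage although neuronal markers were low. CPM of *Tubb3* in the WT libraries was 68.1, 46.2, 57.5 and 64.6 on day 20, then 42.3, 44.0, 41.1 and 42.2 on day 22, 42.0 and 43.4 on day 24 and 43.0 and 35.4 on day 26. For *Tubb3* in KO the libraries stood at 50.1, 43.8, 56.1 and 57.1 CPM on day 20, then 47.7, 46.5, 57.7 and 68.9 on day 22, 47.3 and 44.9 on day 24 and 35.2 and 35.1 on day 26. The log2 fold change with age was -0.59 ± 0.16 in WT (adjusted p = 0.00623, edgeR) and -0.56 ± 0.16 in KO (adjusted p = 0.00735). The WT call was lost without WT_d26_2 (-0.46, adjusted p = 0.117) and with only the groups compared (adjusted p = 0.0992), and the KO call without KO_d26_1 or KO_d26_2 (adjusted p up to 0.0555). *Tubb2b* stayed between 0.229 CPM in KO_d26_2 and 2.24 CPM in WT_d24_2, with 4 to 36 counts per library, and its age changes of -0.59 ± 0.65 in WT and -0.85 ± 0.72 in KO (log2) did not pass (adjusted p = 0.482 and 0.332, edgeR).

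**Figure D2:**
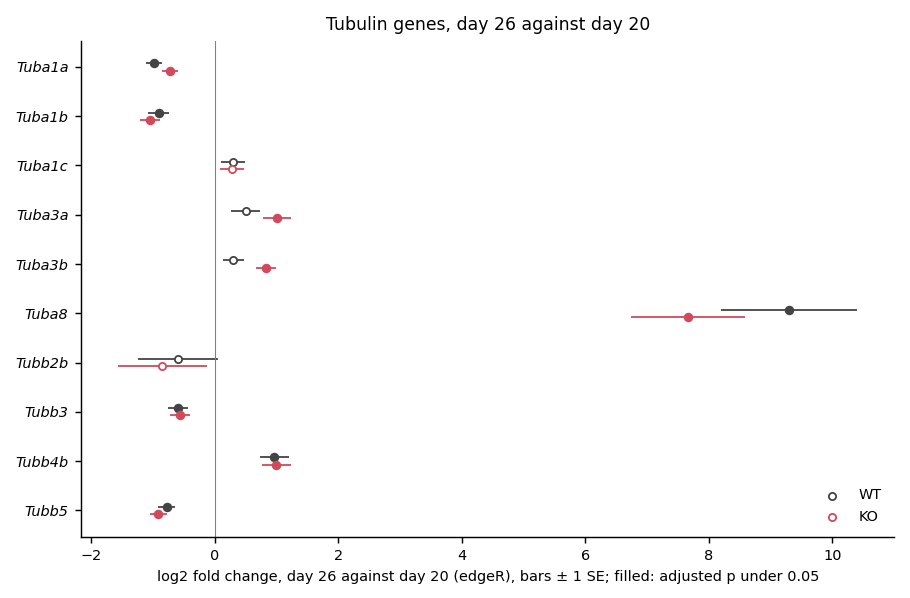
Log2 fold change of each tubulin gene from day 20 to day 26 (x axis) by the edgeR fit, WT in grey and KO in red, with bars of ± 1 SE and filled points where the adjusted p is under 0.05. *Tuba1a*, *Tuba1b*, *Tubb3* and *Tubb5* lie left of 0 and *Tubb4b* and *Tuba8* right of it in both genotypes, and *Tuba3a* and *Tuba3b* are filled in KO alone; the difference between the genotypes did not pass for any of the 10. The fitted values of *Tuba8* depend on the prior count.

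The age change was compared between genotypes by a contrast of its own. None of the 10 genes passed (edgeR; DESeq2 also called none), and 1 had an unadjusted p under 0.05. Of all genes tested, 0% passed. That 1 gene was *Tuba3b*, whose age change was larger in KO by 0.53 ± 0.24 on the log2 scale (adjusted p = 0.426, edgeR). For *Tuba3a* the difference was 0.50 ± 0.34 (adjusted p = 0.662). For *Tuba1a* it was 0.26 ± 0.18 (adjusted p = 0.684). The largest in size was that of *Tuba8*, -1.64 ± 1.84 (adjusted p = 0.833, edgeR), which rests on few counts at day 20 and depends on the prior count. The filled and unfilled points of *Tuba3a* and *Tuba3b* therefore do not show a difference between genotypes.

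Marker lists of the cells that make up the testis moved with age too. All 12 round spermatid markers and all 10 elongating spermatid markers were called higher at day 26 in both genotypes, and 6 of 10 pachytene markers in WT and 7 in KO. Of the Sertoli list 7 of 12 in WT and 8 in KO were called lower, and of the spermatogonia list 6 of 10 in WT and 5 in KO, with no call in the opposite direction in either list. All 8 Leydig cell markers were called higher in WT and 3 of 8 in KO. Of the peritubular myoid list 1 of 6 was higher in each genotype and 3 in WT and 4 in KO were lower, and of the endothelial list 2 of 5 in WT and 3 in KO were lower. No macrophage marker was called, and 1 of 5 neuronal markers in WT and 2 in KO were lower. The summed elongating list went from 2.11 to 11.4 CPM in WT at day 20 to 2421 to 3586 CPM at day 26. The summed spermatogonia list went from 859 to 1424 CPM to 622 to 657 CPM. The part of these lists in the tubulin changes was not tested.

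Whether loss of ATAD2 changed tubulin gene levels was asked day by day. Few of the 10 genes did so by the test, and *Tuba8* was the clearest. At day 20 none passed (edgeR; none had an unadjusted p under 0.05, and DESeq2 also called none), where 3.34% of all genes did. At day 22, 1 of 10 passed, *Tuba8*, where 2.51% of all genes did. At day 24 and at day 26 none passed, with 1 and 2 genes at an unadjusted p under 0.05, no call by DESeq2 on either day, and 0.0874% and 0.0466% of all genes called. Over the mean of the 4 daily differences, 2 of 10 passed, *Tuba8* higher and *Tubb5* lower in KO, where 7.08% of all genes did. These background shares moved with single libraries too: leaving out 1 gave 151 to 780 calls over all genes at day 20 (573 with all libraries), 60 to 858 at day 22 (431) and 302 to 1737 for the mean (1215). The median log2 fold change of the 10 genes ran from -0.07 at day 20 to 0.21 at day 22, and was 0.05 over the mean of the days, beside medians over all genes of 0.00 to 0.01 in those comparisons.

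Libraries of the genotypes did not overlap for 0 of the 10 genes at day 20, where this held for 4.71% of all genes, and for 2 at day 22 (8.09% of all genes), *Tuba8* and *Tubb3*, both higher in KO. With 2 libraries against 2 the count was 6 of 10 at day 24 (44.0% of all genes) and 6 of 10 at day 26 (59.0% of all genes).

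The difference in *Tuba8* at day 22 was the largest. With the 4 KO libraries at 0.666, 18.9, 6.52 and 0.939 CPM and the 4 WT libraries at 0.205 to 0.493 CPM, the fitted log2 fold change was 4.52 ± 0.97 (adjusted p = 0.0207, edgeR). The summed counts of 438 in KO and 18 in WT gave a ratio of 24.2 (95% interval 15.1 to 41.2, counting error only). Most of the KO counts came from KO_d22_2 and KO_d22_3, and without KO_d22_2 the ratio was 9.29 (5.64 to 16.2). The call was lost without KO_d22_2 (3.19, adjusted p = 0.0959), without WT_d22_2, WT_d22_3 or WT_d22_4 (4.35 to 4.47, adjusted p 0.0613 to 0.0977), and when the 8 libraries of day 22 were fitted alone (4.52, adjusted p = 0.144). At day 20 the summed counts were 34 in KO, 24 of them in KO_d20_4, and 7 in WT, a ratio of 4.40 (1.92 to 11.8), or 1.73 (0.593 to 5.34) without KO_d20_4. The values at days 24 and 26 were 1.82 ± 0.89 (adjusted p = 0.976, edgeR) and 0.44 ± 0.84 (adjusted p = 0.889).

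Averaged over the 4 days, *Tuba8* was higher in KO by 2.21 ± 0.56 on the log2 scale (adjusted p = 0.0268, edgeR). Every KO library was above every WT library on days 22, 24 and 26. On these days libraries of the genotypes did not overlap for 8.09%, 44.0% and 59.0% of all genes. The mean over the 4 days includes the fitted values of days 20 and 22, which rest on few WT counts, so its size depends on the prior count as they do. This call was lost in 6 of the 24 fits that left out 1 library, those without KO_d20_4 (1.89, adjusted p = 0.116), KO_d24_1, WT_d24_2, KO_d26_2, WT_d26_1 or WT_d26_2 (adjusted p 0.0504 to 0.0619). The joint test for a difference between days did not pass for it (adjusted p = 0.553, edgeR).

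Spermatid markers moved with *Tuba8*. The elongating list summed to 131, 826, 368 and 161 CPM in the KO libraries of day 22 and to 145, 59.4, 96.6 and 83.5 CPM in the WT libraries. The KO libraries that were high for *Tuba8*, KO_d22_2 and KO_d22_3, were the highest for that list, and KO_d20_4, the highest of day 20 for *Tuba8*, had the highest list value of its day at 155 CPM. Of the elongating list, 5 of 10 were called higher in KO at day 20, 4 at day 22, none at days 24 and 26 and 8 over the mean of the days, and none were called lower. Of the round spermatid list, 10 of 12 were called higher at day 20, 1 at day 22 and 7 over the mean. The part of these lists in the *Tuba8* result was not tested.

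*Tubb5* was lower in KO by a small amount at each day. It differed by -0.18 ± 0.11 (log2) on day 20, -0.09 ± 0.11 on day 22, -0.32 ± 0.15 at day 24 and -0.32 ± 0.15 at day 26, none of which passed (adjusted p 0.429 to 0.951, edgeR). The mean of the 4 days was -0.23 ± 0.07 (adjusted p = 0.0416). That call sat at the threshold: it was lost in 19 of the 24 fits that left out 1 library (adjusted p up to 0.143) and with 2 other settings named in the closing section, and it was strengthened without WT_d20_2 (-0.25, adjusted p = 0.0123). Of the endothelial list 3 of 5 and of the peritubular myoid list 2 of 6 were also called lower in KO over the mean of the days, where 7.08% of all genes were called. None of the 12 Sertoli, 10 spermatogonia and 10 pachytene markers was called in that comparison, and 1 of 8 Leydig markers was higher. The part of these lists was not tested.

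*Tuba3b* was next in order of p. Its log2 fold change in KO against WT was 0.05 ± 0.14 on day 20, then 0.23 ± 0.14 (day 22), 0.14 ± 0.20 (day 24) and 0.58 ± 0.20 (day 26), and the mean was 0.25 ± 0.09 (adjusted p = 0.0746, edgeR). DESeq2 called the mean (0.27, adjusted p = 0.0234). At day 26, where KO libraries were at 1054 and 1037 CPM and WT libraries at 677 and 718 CPM, the adjusted p was 0.269. *Tuba3a* at day 26 gave 0.48 ± 0.27 (adjusted p = 0.527). When only the 4 libraries of day 26 were fitted, both genes passed, *Tuba3b* at 0.60 (adjusted p = 0.00425) and *Tuba3a* at 0.49 (adjusted p = 0.00968), in a fit that called 2104 of all genes where the fit of all 24 libraries called 8.

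*Tubb3* was higher in every KO library than in every WT library at day 22, where the genotypes did not overlap for 8.09% of all genes. It was higher by 0.38 ± 0.13 on the log2 scale (unadjusted p = 0.0082 and adjusted p = 0.133, edgeR). On the other days its values were -0.19 ± 0.13 (day 20), 0.11 ± 0.18 (day 24) and -0.16 ± 0.19 (day 26). A joint test asked if the KO minus WT difference varied with day, and *Tubb3* alone among the 10 had an unadjusted p under 0.05 by edgeR, which did not pass after adjustment (adjusted p = 0.481). None of the 10 passed that test (DESeq2 also called none), and 0.00582% of all genes did. Over all genes this count depended on the method, with 1 call by edgeR and 262 by DESeq2. Over the mean of the days, *Tuba1a* (0.01 ± 0.06), *Tuba1b* (0.07 ± 0.08), *Tuba1c* (-0.09 ± 0.10), *Tuba3a* (0.17 ± 0.12), *Tubb3* (0.03 ± 0.08) and *Tubb4b* (0.16 ± 0.12) did not pass (adjusted p 0.417 to 0.952, edgeR). *Tubb2b* was at -0.87 ± 0.33 (adjusted p = 0.109), from 4 to 36 counts per library.

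**Figure D3:**
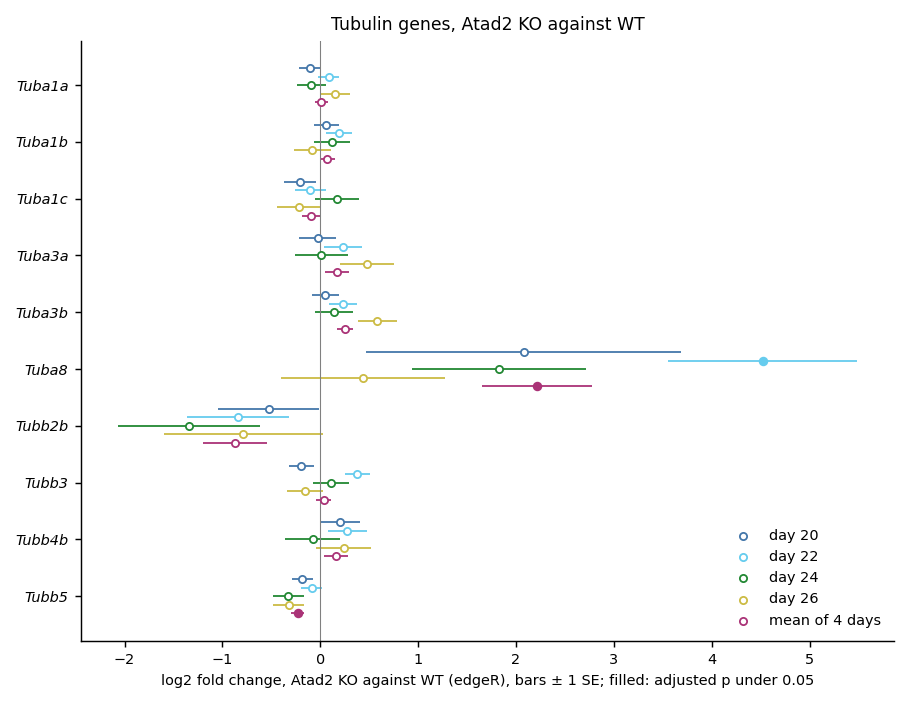
Log2 fold change of KO against WT (x axis) for each tubulin gene at each day and as the mean of the 4 days, by the edgeR fit, with bars of ± 1 SE and filled points where the adjusted p is under 0.05. The filled points are *Tuba8* at day 22 (4.52) and over the mean (2.21) and *Tubb5* over the mean (-0.23), and outside *Tuba8* and *Tubb2b* all points lie within 0.6 of 0. The fitted *Tuba8* values of days 20 and 22 rest on few WT counts and depend on the prior count, and so does their mean with the other days.

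The mix of isotypes is described by each gene's share of the summed CPM per kb of the 6 α or the 4 β genes followed here, in each library and with no test. Other tubulins, such as *Tuba4a*, are not in these sums. Among the α genes, *Tuba3a* and *Tuba3b* together made up 81.6 ± 4.72% in WT and 83.4 ± 1.14% in KO at day 20 (SD, n = 4) and 88.3 ± 2.11% and 90.5 ± 0.306% at day 26 (n = 2). The 3 *Tuba1* genes went from 18.4 ± 4.72% to 7.81 ± 1.13% in WT and from 16.6 ± 1.17% to 5.78 ± 0.0815% in KO. *Tuba8* reached 3.85 ± 0.982% in WT and 3.70 ± 0.224% in KO at day 26, and at day 24 it was at 0.550 ± 0.197% in WT and 1.82 ± 0.954% in KO.

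Among the β genes, *Tubb4b* went from 58.8 ± 7.46% in WT and 66.6 ± 0.824% in KO at day 20 to 83.0 ± 2.63% and 87.5 ± 0.0806% at day 26. *Tubb5* went from 30.7 ± 5.70% to 12.2 ± 1.80% in WT and from 24.9 ± 0.764% to 8.70 ± 0.0168% in KO. *Tubb3* went from 10.4 ± 1.85% to 4.73 ± 0.889% in WT and from 8.41 ± 0.124% to 3.77 ± 0.0828% in KO. The summed α level was 2.60 ± 0.333 times the summed β level in WT at day 20 and 2.26 ± 0.0537 times at day 26, and in KO 2.48 ± 0.273 and 2.83 ± 0.0624 times. These shares and the ratio of the sums depend on how much of each gene can be counted, and the ratio was not recomputed with another length. With the length unique at 75 bases in place of the exon length, *Tuba3a* and *Tuba3b* made up 66.5% and the *Tuba1* genes 33.5% of the α level in WT at day 20, and 81.0% and 16.2% at day 26. *Tubb4b* then made up 71.7% and 89.8% of the β level.

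**Figure D4:**
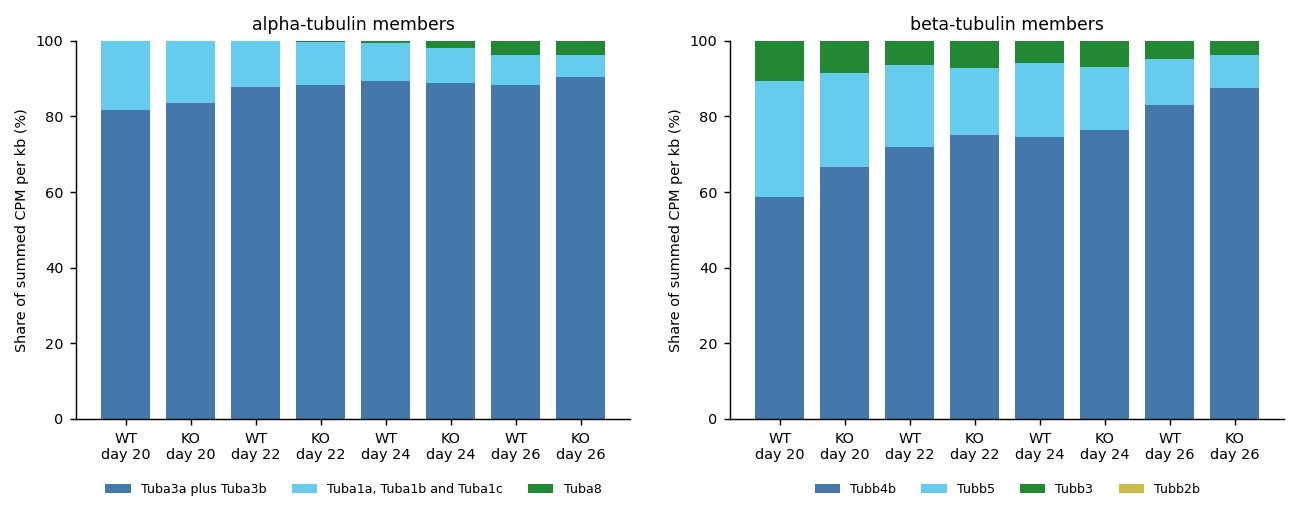
Mean share of each gene or gene group in the summed CPM per kb of the 6 α genes (left) and the 4 β genes (right), in percent (y axis), for the 8 groups of genotype and day. The shares of *Tuba3a* plus *Tuba3b* and of *Tubb4b* grow from day 20 to day 26, and *Tuba8* becomes visible at days 24 and 26; *Tubb2b* is too small to see.

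Several of the genes varied together over the 24 libraries. On log2 CPM, Pearson's r was 0.95 between *Tuba3a* and *Tuba3b*, 0.95 between *Tuba3a* and *Tubb4b* and 0.88 between *Tuba3b* and *Tubb4b*, and it was 0.92 between *Tuba1a* and *Tuba1b* and 0.83 between *Tuba1a* and *Tubb5*. Between *Tuba1a* and *Tuba8* it was -0.86. *Tuba1c* stood apart, with r of -0.31 to 0.37 with the other members, and so did *Tubb2b*, with r of -0.49 to 0.32. These values are descriptions over libraries that share the course of age.

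Genes outside the set with the most similar pattern were sought by the same measure. For *Tuba8* they were *Prss37* (r = 0.996, n = 24) and *Spata31d1b* (0.995). *Prss37* was at 0.0469, 0.103, 9.27 and 76.7 CPM in WT at days 20, 22, 24 and 26 and at 0.305, 5.78, 37.0 and 104 CPM in KO. For *Tubb4b*, *Mum1* is named (0.986). For *Tuba3a* they were *Ap1m1* (0.981) and *Slc13a5* (0.979), and for *Tuba3b* they were *Zmynd10* (0.979) and *Dnali1* (0.959), which are needed for or part of axonemal dyneins. *Tuba1a* was most like *Prmt1* (0.947) and *Ftsj1* (0.937), *Tuba1b* like *Bid* (0.919) and *Dcaf4* (0.917), *Tubb5* like *Tet3* (0.940) and *Pea15a* (0.935), and *Tubb3* like *Emc1* (0.907) and *Gata1* (0.904), the latter a transcription factor of Sertoli cells in the testis. *Tubb2b* was most like *Slc38a4* (0.847) and *Mest* (0.816), and *Tuba1c* like *Lace1* (0.749) and *Ptprh* (0.678).

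Of 14 glutamylases and glycylases, the tubulin tyrosine ligase-like enzymes that add glutamate or glycine and their partner subunits, 12 were called higher at day 26 in WT and 13 in KO, and none lower, with a median log2 fold change of 1.75 in WT and 1.84 in KO. The glycylase *Ttll8* went from 0.892 ± 0.665 CPM in WT at day 20 to 112 ± 0.315 CPM at day 26, a log2 fold change of 6.90 ± 0.77 (adjusted p = 8.41e-07, edgeR). The glycylase *Ttll10* went from 7.30 ± 5.61 to 123 ± 2.76 CPM in KO (4.07 ± 0.54, adjusted p = 1.04e-05). Means of the other genotype went the same way, *Ttll8* from 7.95 to 115 CPM in KO and *Ttll10* from 1.47 to 99.3 CPM in WT. *Ttll2* had 0 counts in all 4 WT libraries of day 20 and 33 to 49 at day 26, and passed in both genotypes (adjusted p = 7.50e-06 in WT and 3.19e-06 in KO).

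The deglutamylases, carboxypeptidases that shorten these chains, were also higher at day 26, 4 of 6 in WT and 5 of 6 in KO, with none lower. *Agbl5* gave 1.26 ± 0.31 in both genotypes (adjusted p = 0.00279 in WT and 0.0023 in KO, edgeR), *Agbl3* 1.12 ± 0.15 in WT and *Agbl4* 1.10 ± 0.19 in KO. Means of the other genotype went the same way, *Agbl3* from 71.7 to 125 CPM in KO and *Agbl4* from 38.65 to 68.3 CPM in WT. Of the 6 genes of tyrosination and acetylation, 3 were higher and 2 lower in each genotype, and the WT count of 5 calls was 3 without WT_d26_1 or WT_d26_2 and 2 with only the groups compared. *Vash2*, a carboxypeptidase that removes the terminal tyrosine, rose by 4.98 ± 0.52 in WT and 2.96 ± 0.48 in KO on the log2 scale, and *Atat1*, the α-tubulin acetyltransferase, by 1.26 ± 0.23 and 1.24 ± 0.23 (adjusted p of 0.000197 or less, edgeR).

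Of 9 other tubulins tested, 3 were higher in WT and 4 in KO at day 26, and none lower. Without KO_d26_2 the KO count was 1. *Tuba4a*, an α-tubulin whose gene encodes no terminal tyrosine, went from 4.40 ± 0.452 to 24.3 ± 2.65 CPM in WT (log2 fold change 2.45 ± 0.28, adjusted p = 4.71e-07, edgeR) and from 3.89 ± 0.451 to 36.7 ± 0.725 CPM in KO (3.23 ± 0.28, adjusted p = 1.09e-07). *Tubal3*, a divergent α-tubulin, had 1 to 3 counts in the WT libraries of day 20, at the floor, and 18 and 21 at day 26 (adjusted p = 9.48e-05), and in KO it rose by 1.18 ± 0.45 (adjusted p = 0.0333).

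The lists of tubulin folding and nucleation held 30 tested genes, of which 13.3% were called higher and 16.7% lower in WT and 26.7% and 20.0% in KO, none of these shares above that of all genes. Of 9 subunits of the chaperonin CCT, 2 were higher and 1 lower in WT, and 2 higher in KO, and *Cct6b*, a subunit known for its expression in testis, rose by 1.10 ± 0.16 and 1.04 ± 0.16. Without WT_d20_2, 5 of 9 were called in WT and 7 in KO, and without KO_d20_1 5 in KO. None of 6 prefoldin genes was called in WT, and 1 was higher (*Pfdn6*, 0.65 ± 0.15) and 1 lower (*Vbp1*, -0.98 ± 0.29) in KO, where 1 call was left without KO_d26_1 or KO_d26_2. Of 7 folding cofactors, 1 was higher and 1 lower in WT and 2 higher and 1 lower in KO, among them *Tbcc* at 0.79 ± 0.14 in WT and 0.90 ± 0.14 in KO. Their calls were 1 in WT without WT_d26_2 and 1 in KO without KO_d26_2. Of 8 genes of the γ-tubulin ring complex, which nucleates microtubules, 1 was higher and 3 lower in WT and 3 higher and 4 lower in KO. These 4 calls in WT became 2 without WT_d26_1 and 1 without WT_d26_2, and the 7 in KO became 3 without KO_d26_2. With only the groups compared, none was called in WT. *Mzt2* rose by 0.63 ± 0.18 and 0.94 ± 0.18, *Tubgcp5* fell in WT (-0.80 ± 0.24), and *Mzt1* fell in KO (-0.74 ± 0.21). Means of the other genotype went the same way, *Tubgcp5* from 77.0 to 48.5 CPM in KO and *Mzt1* from 50.1 to 35.3 CPM in WT.

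Of 8 severing genes, 2 were higher and 1 lower in WT, with 5 calls without WT_d20_3 and none with only the groups compared, and 3 higher and 1 lower in KO. *Katnbl1* fell, with log2 fold changes of -0.96 ± 0.28 and -1.28 ± 0.29. Of 15 genes of microtubule-binding and end proteins, 4 were higher and 4 lower in WT and 6 higher and 3 lower in KO. Without WT_d26_1 the WT calls were 5, without WT_d26_2 they were 4, and with only the groups compared they were 2. *Clip1*, a plus-end protein, rose by 1.38 ± 0.19 and 1.25 ± 0.19, and *Mapre3*, an end-binding protein, by 0.98 ± 0.25 and 1.44 ± 0.25.

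**Figure D5:**
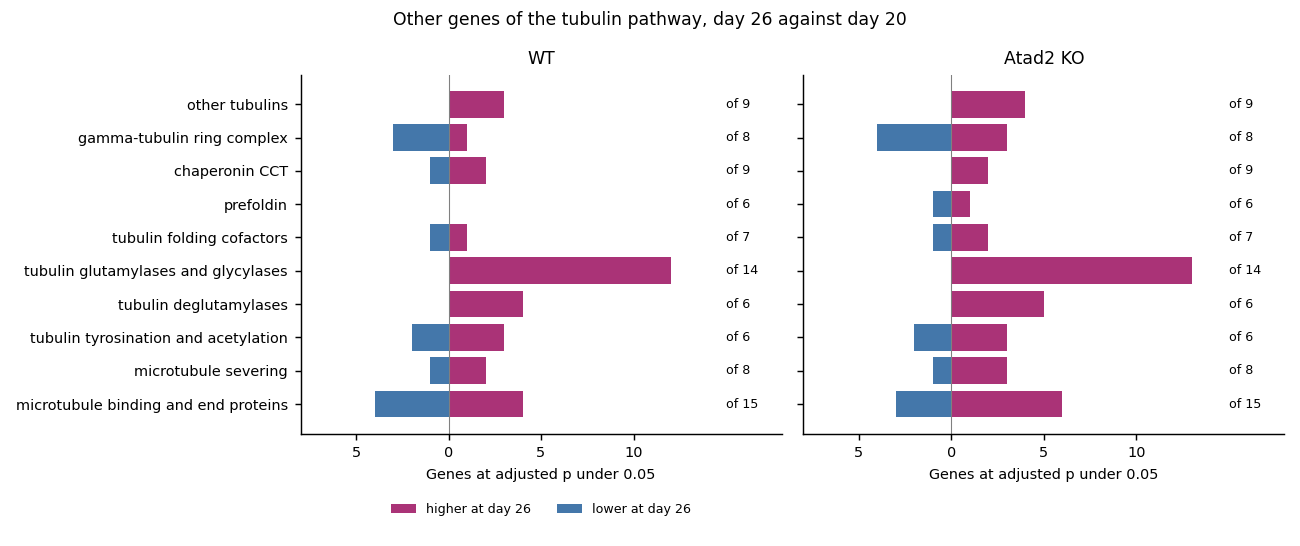
Number of genes called at an adjusted p under 0.05 in the edgeR fit (x axis), higher at day 26 to the right and lower to the left, for each list of the tubulin pathway (y axis, with the number tested), in WT and KO. Glutamylases and glycylases (12 and 13 of 14 higher) and deglutamylases (4 and 5 of 6 higher) have calls in 1 direction, and the γ-tubulin ring complex and the microtubule-binding proteins have calls in both.

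In KO against WT, 5 of the 88 genes tested in these lists were called at day 20 (5.68%, beside 3.34% of all genes), and 3 were called when the 4 days were averaged (3.41%, beside 7.08%). At day 20, *Ttll8* (3.09 ± 0.72, adjusted p = 0.0215), *Ttll10* (2.28 ± 0.57, adjusted p = 0.0306) and *Ttll3* (1.05 ± 0.28, adjusted p = 0.0456), a further glycylase, were higher in KO, as were *Vash2* (1.90 ± 0.47, adjusted p = 0.0288) and *Tubal3* (35 summed counts in KO and 7 in WT, adjusted p = 0.0307, edgeR). *Ttll8* had 15 to 257 counts in the KO libraries of day 20 and 2 to 25 in the WT libraries, which overlap. Without WT_d20_2, none of these 5 genes passed (adjusted p 0.0708 to 0.136). Of the 24 fits that left out 1 library, *Ttll3* was lost in 19 and the others in 5 each. Over the mean of the 4 days, *Ttll10* (1.05 ± 0.28, adjusted p = 0.0340, lost in 12 of those fits with adjusted p up to 0.100) and the deglutamylase *Agbl1* (0.65 ± 0.18, adjusted p = 0.0322, lost in 9 of those fits with adjusted p up to 0.0843) were higher and the severing enzyme *Fign* (-0.76 ± 0.18, adjusted p = 0.0179, edgeR; lost in 3 of them, adjusted p up to 0.0664) was lower in KO. No gene of these lists was called at days 22, 24 or 26 in the fit of all 24 libraries. Calls at day 22 appeared when 1 library was left out: 3 glutamylases or glycylases and 1 severing gene without KO_d22_1, and 1 glutamylase or glycylase without KO_d20_2, WT_d20_2, WT_d20_3 or KO_d22_4. DESeq2 called 1 gene of the glutamylase and glycylase list at day 22 and 1 at day 26. The fit of the day 26 libraries alone, with its 2104 calls, included 6 of that list and 1 to 5 of each other list except the chaperonin CCT. The spermatid lists that were higher in KO at day 20 are given with *Tuba8* above, and their part here was not tested.

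The promoters of *Tubb4b* and *Tuba3a*, which had r = 0.95 over the libraries, are shown for the CCAAT letters in them, a motif chosen after the sequences were seen. Each is the 250 bases before the start in RefSeq (GRCm38.p6), on the gene's strand, with CCAAT or its reverse ATTGG in capitals, and neither overlaps an exon of its own gene in GENCODE M21.
Tubb4b (chr2:25224703-25224952, minus strand): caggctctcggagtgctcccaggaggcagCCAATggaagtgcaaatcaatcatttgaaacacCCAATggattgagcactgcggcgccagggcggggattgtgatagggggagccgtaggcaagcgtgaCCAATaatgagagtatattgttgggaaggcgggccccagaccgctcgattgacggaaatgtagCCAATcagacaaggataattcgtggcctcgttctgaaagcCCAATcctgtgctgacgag
Tuba3a (chr6:125286082-125286331, minus strand): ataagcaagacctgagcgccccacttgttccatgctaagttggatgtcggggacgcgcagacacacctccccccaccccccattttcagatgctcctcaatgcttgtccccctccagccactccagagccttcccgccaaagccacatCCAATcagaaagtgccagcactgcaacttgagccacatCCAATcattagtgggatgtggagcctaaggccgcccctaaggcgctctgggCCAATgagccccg
*Tubb4b* held 5 matches and *Tuba3a* 3. Windows were found for 9 of the 10 genes. *Tuba3b* and *Tubb5* held 2 matches each, *Tuba1a*, *Tuba1c* and *Tubb3* 1 each, and *Tuba1b* and *Tuba8* none. Of 32851 RefSeq windows of 300 bases (250 before and 50 after the start), 37.4% held at least 1 match on either strand, 11.7% at least 2 and 3.37% at least 3. Of the 9 windows, 6 reach into the gene as GENCODE places it, *Tuba1a*, *Tuba1b* and *Tuba3b* by 202, 175 and 206 bases, so their letters may not be upstream of the start used in testis.

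The first 2 matches of *Tuba3a* lie at -102 and -64 and those of *Tuba3b* at -89 and -51 from the RefSeq start, with the letters around them alike, which is why they are printed as a set.
Tuba3a, -102: aaagccacatCCAATcagaaagtgc
Tuba3b, -89: aaatttacatCCAATcagaaagtac
Tuba3a, -64: tgagccacatCCAATcattagtggg
Tuba3b, -51: tgagccacatCCAATcgcaaaaagg
The other 3 motifs were searched on both strands: TATAAA was found in 1 of the 9 windows (*Tubb4b*, after the start), GGGCGG in 6, and TGACGTCA in none, beside 13.6%, 35.7% and 1.79% of all windows. A match is a description of the letters and not evidence of binding.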

How the data were processed

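Total RNA from testes (ribosomal RNA depleted, strand-specific, paired ends of 75 bases) was measured in 24 libraries. The authors aligned read pairs to mm10 with STAR 2.7.11b and counted them in exons with HTSeq, discarding pairs with several alignments, and what they deposited are raw counts by gene symbol for single libraries, neither normalized nor pooled. The version of their gene models is not given in the sources used here. The 5 tally rows of each table were kept out. Pairs assigned to no exon took 45.1% to 58.5% of a table, and pairs with several alignments 4.74% to 13.7%. The authors counted by strand in the intersection-strict mode of HTSeq. The first share therefore also holds pairs reaching past an annotated exon edge or lying on the opposite strand. The study's text gives fewer day 20 replicates than the labels, and all labelled libraries were used.

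After TMM scaling, the counts went into the quasi-likelihood pipeline of edgeR 4.0.16 (R 4.3.3, filterByExpr minimum 10, robust fit, 8 groups, all 24 libraries), two-sided, with Benjamini-Hochberg adjustment over 17170 genes. The contrasts took KO minus WT on every day, their mean, day 26 against day 20 in each genotype, and the differences of these. The SE of an edgeR log2 fold change was derived from the test. It is the absolute fold change divided by the square root of the F statistic, which is approximate at low counts. Alternatives were DESeq2 1.42.0, its size factors, no filter, only the groups compared, the replicate number as a block, and each library left out. CPM are TMM-scaled; levels between genes are per kb of the union of exons (GENCODE M21, mm10), which matched all 10 genes. Only counting error enters the intervals and floors. No libraries of a group agreed within sampling noise. Promoter windows came from a RefSeq table (GRCm38.p6), coding ends from GENCODE M21 transcripts, and no protein sequences were used.

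The 10 genes and all lists were chosen with earlier results of these data known. Named were all 10 genes, pathway genes called in KO against WT (at most 3 per list and comparison), the 2 of largest change per list with age, the 2 genes most like each member, and *Atad2*. Some items that these rules name are not reported here.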

Additional observations from a re-analysis of the deposited data

Results flagged for a closer look

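In the groups of 4 libraries, a library was singled out where its gap to the nearest other exceeded the 95% critical value of Dixon's test, which chance does in about 1 of 20 groups. This happened 9 times over 40 combinations of gene and group. WT_d20_2 was low for *Tubb4b* (188 CPM, others 450.5 to 482), for *Tubb5* (247 CPM, others 328 to 334) and for *Tuba8* (0 CPM, others 0.144 to 0.173, which is 0 counts against 2 or 3). WT_d22_2 was low for *Tubb4b* (448 CPM, others 561 to 569). KO_d20_4 was high for *Tuba8* (1.63 CPM, others 0.0654 to 0.330) and WT_d22_1 was high for it at 0.493 CPM (others 0.205 to 0.251), both at few counts. WT_d20_1 was high for *Tuba1c* (24.8 CPM, others 17.9 to 18.7) and KO_d20_2 was low for it (12.2 CPM, others 18.5 to 19.7). WT_d20_3 was high for *Tubb2b* at 2.08 CPM (others 0.472 to 0.737). WT_d20_2 was also the lowest library for *Tuba3a* and *Tuba3b*, and the KO against WT difference of day 20 without it was -0.26 for *Tuba3a*, -0.10 for *Tuba3b* and -0.04 for *Tubb4b* on the log2 scale, none of which passed (adjusted p 0.291 to 0.898, edgeR).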

How the results depend on the processing

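Fitting only the groups compared left 0 of the 10 genes called at day 22 and called 2 at day 26, *Tuba3a* and *Tuba3b*. Over the mean of the 4 days, 1 gene was called with DESeq2's size factors and 1 without the filter on low counts, *Tubb5* being lost in both. Leaving out 1 library gave 0 to 1 calls at day 22, 0 to 3 over the mean, 5 to 8 for age in WT and 7 to 8 in KO. With the replicate number as a block no count of calls among the 10 genes changed, and 4 counts of the pathway lists moved: other tubulins at day 20 from 1 to 0, glutamylases and glycylases over the mean from 1 to 3, tyrosination and acetylation over the mean from 0 to 1, and severing for age in WT from 3 to 5. The correlation of same-numbered libraries was 0.0705 to 0.416 at days 20, 24 and 26 and -0.459 to -0.0254 at day 22, not above 0.1 in every pair, so the numbers were not taken to pair libraries. Pairs correlated best with their own number in 3 of 4 cases at day 20 and none of 4 at day 22. They also did at days 24 and 26, where both pairs of a day must give the same value. There, deviations from the mean of 2 libraries are equal and opposite. Under the replicate block, *Tuba3a* at day 20 turned to 0.0623, and in the genotype difference of the age change *Tuba1c* turned to 0.000426 and *Tubb4b* to -0.0453. That *Tuba1c* value was 0.0375 with DESeq2, 0.0392 with its size factors and 0.0199 with the groups compared alone. The WT age calls of *Tubb3* (adjusted p = 0.0992, edgeR) and *Tubb4b* (adjusted p = 0.0825) were lost with the groups compared alone. The cause was not tested.

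Counts over all genes moved more. At day 20 they were 573 calls, 901 with DESeq2 and 5 with the groups compared alone. At day 22 they were 431, 749 and 69 (365 with the replicate block). At day 24 they were 15, 40 and 11 (9 with the replicate block), and at day 26 they were 8, 153 and 2104. Leaving out 1 library gave 151 to 780 calls at day 20 (lowest without WT_d20_3, highest without KO_d20_2), 60 to 858 at day 22 (without WT_d22_4, KO_d22_1), 0 to 24 at day 24 (without KO_d24_1, WT_d24_1), 0 to 103 at day 26 (without KO_d26_1 or KO_d26_2, WT_d20_2), 302 to 1737 over the mean (without WT_d24_2, KO_d22_1) and 0 to 326 for the genotype difference of the age change (highest without KO_d20_2). For the genotype difference of the age change, DESeq2 called 215 and the replicate block 90, beside 0. For the joint test of a difference between days, DESeq2 called 262 and the replicate block 14, beside 1. Leaving out 1 library gave 0 to 140 there (highest without KO_d20_2). In the pathway lists for age in WT, the groups compared alone left 0 calls for the γ-tubulin ring complex (from 4), 0 for severing (from 3) and 2 for binding and end proteins (from 8).

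Other log2 differences that changed sign, none of them called, ranged as follows when 1 library was left out. At day 20, *Tuba1b* ran from -0.0265 to 0.14, *Tuba3a* from -0.26 to 0.19, *Tuba3b* from -0.10 to 0.23, *Tubb2b* from -0.76 to 0.25 and *Tubb4b* from -0.0435 to 0.31. At day 24, *Tuba1c* ran from -0.13 to 0.42, *Tuba3a* from -0.0721 to 0.12 and *Tubb4b* from -0.14 to 0.00150. At day 26, *Tuba1b* ran from -0.17 to 0.0334, *Tuba1c* from -0.43 to 0.0325 and *Tubb2b* from -1.48 to 0.39. The mean of *Tuba1a* ran from -0.0144 to 0.0449, and the WT age change of *Tubb2b* from -1.76 to 0.15. In the genotype difference of the age change, *Tuba1c* ran from -0.22 to 0.23, *Tubb2b* from -1.01 to 0.91, *Tubb3* from -0.10 to 0.18 and *Tubb4b* from -0.0445 to 0.31. The length unique in the whole genome was not run. Low counts limit *Tubb2b* and early *Tuba8*, and 2 libraries a group limit days 24 and 26.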
